A study of Mus musculus with 14 samples.

Results

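The comparison covers the reverted embryonic stem line (rES) at passage 30 against the same label at passage 6, and holds 4 of the 14 libraries of the series, 2 for each passage. Both groups are mouse cells turned back from epiblast stem cells (EpiSC), carry the genotype label CD1-deltaTSIX/JF1 and were kept in LIF, serum replacement and KO DMEM with 25 µM MM401, so they differ in passage number only as far as the labels say. MM401 inhibits Mll1 (gene Kmt2a), a histone H3 lysine methyltransferase, and was first given to EpiSC at 100 µM for the conversion. The other 10 libraries entered the same fit. Of these, 4 are EpiSC (CD1/JF1) treated with LIF, as their titles say, and 100 µM MM401 (day 3, and day 6 at passage 2, with 2 libraries each). A further 3 groups of 2 libraries serve as a scale. These are rES at passage 30 grown without MM401 (the same genotype label), embryonic stem cells (ESC, CD1/JF1, grown with LIF on feeder cells) and EpiSC (CD1/JF1, grown with bFGF). The sources used here do not give how many lines or clones were used, whether the passage 30 cells descend from the passage 6 culture, or whether the rES lines were grown on feeder cells.

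Mouse pluripotent cells exist in a naive state, which resembles the inner cell mass and depends on LIF signalling through STAT3, and in a primed state, which resembles the later epiblast and depends on FGF and activin. Transcription factors such as Nanog, Klf4, Esrrb and Tfcp2l1 hold the naive network, while Pou5f1 and Sox2 serve both states. A line carried through many passages can drift in its imprinted genes, its X chromosomes and its share of differentiated or co-cultured cells, so these groups were read beside the pluripotency genes.

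The 4 libraries held 20831588 and 23045854 counts at passage 6 and 23677089 and 21105310 at passage 30, with 18104 to 18445 genes detected. Pou5f1, Nanog and Sox2 were detected in each of them. The log2 CPM (counts scaled to library size) of replicates had a Pearson r across genes of 0.9936 at passage 6 and 0.9924 at passage 30. The chi-square of the replicates per degree of freedom, which is 1 for pure counting error, was 1.36 at passage 6 and 16.28 at passage 30. The replicates are described as biological duplicates and nothing more is said of their origin. The p-values measure the spread between replicate libraries, estimated over all 14 libraries of the fit and not only the 4 compared. Passage 30 replicate 2 stood apart from its replicate in the ribosomal RNA precursor Rn45s, which took 2.005% of its counts, against 0.5476% in replicate 1 and 0.4086% and 0.3905% at passage 6. Rn45s alone gave most of the passage 30 chi-square, which is summed over all genes.

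Passage 30 differed from passage 6 in many genes by small steps, and its larger changes were nearly all decreases. Of 16247 genes tested, 4167 (25.6%) were called with edgeR's quasi-likelihood test at a Benjamini-Hochberg adjusted p under 0.05, the rule behind every use of rose and fell here. Of these, 1828 (11.3%) rose and 2339 (14.4%) fell at passage 30. The counts of every gene list below are to be read beside these shares. The median log2 fold change was 0.21 among the genes that rose and -0.48 among those that fell. A fold change of at least 2 was reached by 392 genes that fell (2.41%) and by 18 that rose (0.111%), and 16 of those 18 stayed under a mean of 10 CPM in both groups. The split of calls depended on the scaling. With RLE size factors 2463 genes rose and 2074 fell, so that 54.3% of calls were rises against 43.9% with the main scaling (TMM), and with total counts 1330 rose and 2660 fell (33.3%). The DESeq2 Wald test placed 54.6% of its calls among the rises. A fit of the 4 libraries alone called 4376 genes, and Rpph1, Rn45s, Hand2 and Dnmt3b lost their calls in it. The median over all genes tested moved from -0.006 to 0.021 with RLE and to -0.035 with total counts. With single libraries left out, between 2711 and 3619 genes were called. Without passage 6 replicate 1 or 2 the calls were 2711 and 2757, with 1037 and 1077 rises, and without passage 30 replicate 2 there were 1215 rises. The count of rises of at least 2-fold was 10 without passage 6 replicate 2 and 33 without passage 30 replicate 1.

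**Figure D1:**
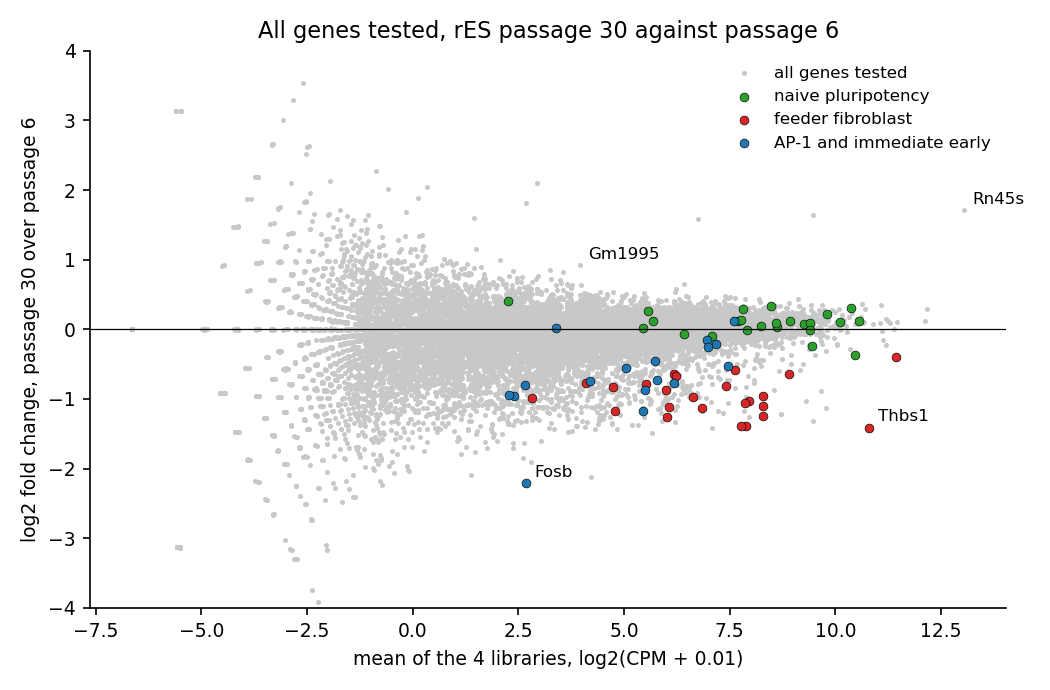
Log2 fold change of passage 30 over passage 6 (y axis) against the mean level in the 4 libraries (x axis, log2 of CPM + 0.01) for all 16247 genes tested, with 3 gene lists in colour; 34 genes beyond ±4 are not drawn. The feeder fibroblast genes lie between -1.41 and -0.40, most AP-1 and immediate early genes lie below 0, and the naive genes lie near 0.

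Among genes of at least 10 CPM, the 15 largest decreases were led by Fosb. Fosb, a partner of Jun in the AP-1 transcription factor, stood at 9.87 and 11.1 CPM at passage 6 and at 2.43 and 2.09 CPM at passage 30. This was the largest fall (log2 fold change -2.21 ± 0.17, SE; adjusted p = 2.74e-12), and both passage 30 libraries lay under both of passage 6. Thbs1, which encodes the matrix glycoprotein thrombospondin 1, stood at 2609 and 2605 CPM at passage 6 and at 975 and 985 CPM at passage 30 (-1.41 ± 0.038, adjusted p = 1.7e-27). Prss23, a secreted serine protease, went from 75.2 and 73.2 CPM to 26.5 and 26 CPM (-1.50 ± 0.060). Siglecg, a sialic acid-binding receptor best known from B cells, stood at 10.7 and 11.4 CPM and then at 2.77 and 3.11 CPM (-1.91 ± 0.16). The other genes among the 15 largest falls were Itga11, P4ha3, Pear1, Ehd2, Cspg4, Angptl7, Col12a1, S1pr3, Tgfb3, Dnm3os and 2610203C20Rik, with log2 fold changes from -2.12 to -1.39. Itga11 is a collagen-binding integrin, P4ha3 a collagen prolyl hydroxylase subunit, Cspg4 the NG2 proteoglycan of pericytes and Tgfb3 a TGF-beta ligand. The groups did not overlap in any of these 15 genes, which the naming rule required. Of all genes tested, 32.2% had both passage 30 libraries under both of passage 6.

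Both long RNAs in that group are hosts of microRNAs. The gene 2610203C20Rik, now named Mir100hg, was counted at 29.4 and 31.5 CPM at passage 6 and at 7.85 and 6.03 CPM at passage 30 (log2 fold change -2.12 ± 0.13). Dnm3os stood at 12.8 and 11.9 CPM and then at 4.27 and 3.84 CPM (-1.60 ± 0.13). Dnm3os lies antisense to Dnm3, and no strand rule is given in the sources used here, so reads of the 2 genes cannot be told apart. Mature microRNAs of the loci within these hosts, 3 in the first and 2 in the second, are shown to say which small RNAs the falling transcripts could carry, with the seed (bases 2 to 8) in capitals. The libraries counted the hosts and not the mature microRNAs. For let-7a-2 only the 3p product is shown, as its 5p product was not matched to this locus here. Sequences are from RefSeq (GRCm38.p6), on chromosome 9 for the first 3 and on chromosome 1 for the others.
miR-100-5p: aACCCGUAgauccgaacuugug
let-7a-2-3p: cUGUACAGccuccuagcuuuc
miR-125b-5p: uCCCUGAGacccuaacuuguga
miR-199a-5p: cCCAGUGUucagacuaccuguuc
miR-199a-3p: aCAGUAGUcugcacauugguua
miR-214-3p: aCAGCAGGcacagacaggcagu
No 2 of the 6 share a seed.

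All 24 tested markers of feeder fibroblasts fell, with a median log2 fold change of -0.98 beside -0.006 over all genes tested, and the range ran from -1.41 in Thbs1 to -0.40 in Fn1 (chosen after its value was seen). Their summed level was 10326 and 10288 CPM at passage 6 and 5680 and 5662 CPM at passage 30. None of the 24 was at 0 in any of the 4 libraries. The same sum was 4685 and 4784 CPM in passage 30 cells without MM401, 9827 and 9875 CPM in EpiSC and 14845 and 14813 CPM in ESC. Acta2, smooth muscle actin, stood at 322 and 313 CPM at passage 6 and at 117 and 125 CPM at passage 30 (-1.39 ± 0.038). Lox, a collagen cross-linking enzyme, went from 424 and 426 CPM to 194 and 203 CPM (-1.10 ± 0.039). The secreted matricellular gene Cyr61 went from 318 and 313 CPM to 155 and 146 CPM (-1.06 ± 0.038). These are bulk libraries, in which fewer cells of a type and less RNA per cell cannot be told apart.

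To see how far the decrease followed those markers, genes were split by whether their log2 CPM correlated with the summed markers (Pearson r of at least 0.8) over the 10 libraries outside the comparison, a split added after the data were seen. Of the genes tested, 1293 (7.96%) followed the markers, and 810 of these fell while 4 rose. They made up 34.6% of all genes that fell and 231 of the 392 that fell at least 2-fold (58.9%). Of the 15 largest falls named above, Fosb (r = -0.174) and Prss23 (r = 0.798) were the only ones that did not follow the markers. Among the 14954 other genes, 1824 rose and 1529 fell, 161 of them at least 2-fold. A refit without the genes that followed the markers called 1578 rises and 1551 falls. Y-linked genes, which XX cells lack, were read beside them, as the sex of the lines is not given. The summed level of the 4 Y-linked genes tested was 17.5 and 19.3 CPM at passage 6, 8.23 and 8.47 CPM at passage 30, 12.2 and 11.8 CPM in EpiSC and 27.9 and 29.3 CPM in ESC. Of these, 3 fell, Eif2s3y (-1.37), Ddx3y (-1.19) and Uty (-0.92), and Kdm5d had a log2 fold change of -0.67 (adjusted p = 0.0715), the last 2 genes chosen after their values were seen. All 4 are among the genes that followed the feeder markers. Of the 24 feeder markers themselves, 16 followed their own sum and 8 did not. A gene that did not follow is thus not set apart from feeder RNA by this rule. The sum was highest in EpiSC treated with LIF and MM401 at passage 2, at 30569 and 29173 CPM. A gene high in those libraries can follow without the pattern of the markers elsewhere. Igf2 (r = 0.857) had a mean of 1008 CPM there, 300 CPM in EpiSC and 131 CPM in ESC. The marker sum was higher in ESC than in EpiSC. A gene that followed is thus not shown to be feeder RNA. The part of such RNA in the decreases below was not tested.

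**Figure D2:**
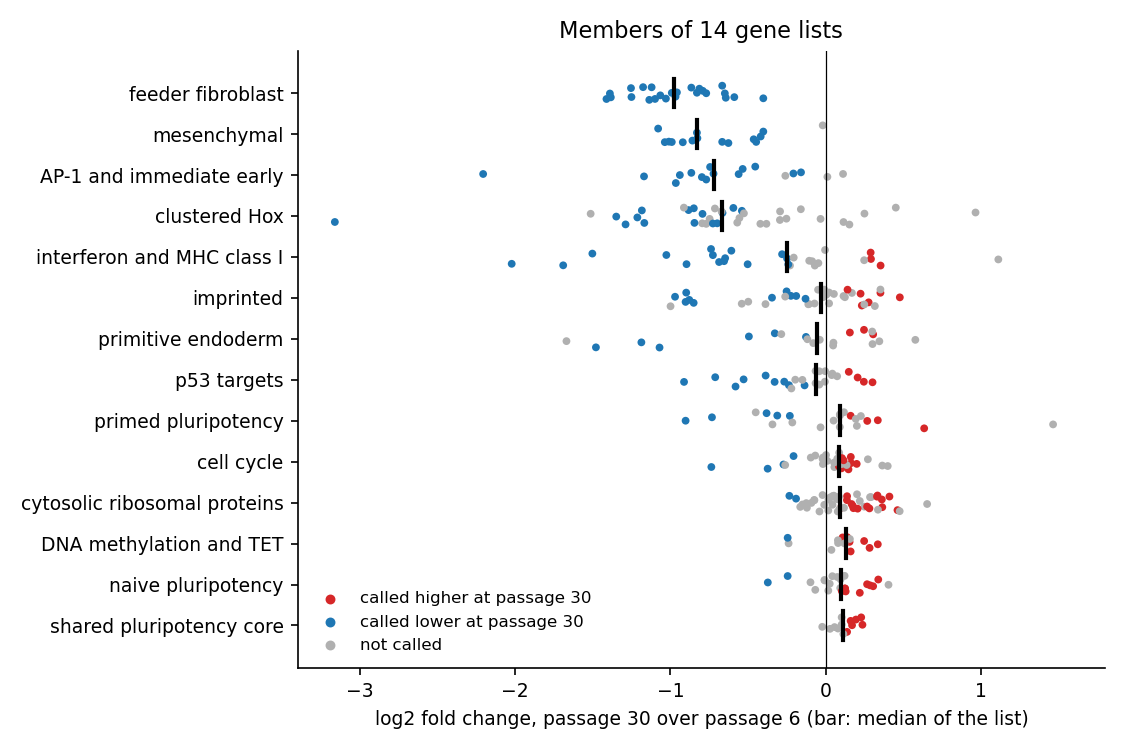
Log2 fold change of passage 30 over passage 6 (x axis) for every tested member of 14 gene lists (rows), with calls in colour and the list median as a black bar. The feeder fibroblast members all lie below 0, and the median of the shared pluripotency core is 0.12.

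Mesenchymal genes fell in the same direction as the feeder markers, and the lists share Fn1, Mmp2, S100a4 and Twist2. Of 15 tested, 14 fell and Zeb1 was not called (-0.02, chosen after its value was seen), with a median of -0.83. Vim, the intermediate filament protein vimentin, stood at 851 and 857 CPM at passage 6 and at 420.1 and 412 CPM at passage 30 (-1.04 ± 0.032). Mmp14, a membrane-bound matrix protease, went from 106 and 101 CPM to 50.9 and 52.2 CPM (-1.01 ± 0.048). Cdh11, a mesenchymal cadherin, went from 75.5 and 70.3 CPM to 37.4 and 39.8 CPM (-0.92 ± 0.058). Of the 14 that fell, 7 followed the feeder markers. The epithelial genes stayed mostly uncalled, with 2 of 19 higher (Grhl2 and Ocln) and 1 lower (Krt19). These shares of 10.5% and 5.26% stand beside 11.3% and 14.4% of all genes tested. The call of Ocln was lost without either passage 6 replicate (adjusted p = 0.063 and 0.135) or passage 30 replicate 2 (0.106).

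AP-1 and other immediate early genes, which respond within minutes to growth factors and stress, were mostly lower. Of 17 tested, 14 fell and none rose, with a median of -0.72 (1 rose with RLE size factors, with DESeq2, without passage 30 replicate 2 and at an unadjusted p under 0.05), and 13 of the 14 (all but Fosl2) did not follow the feeder markers. Fosl2 stood at 61.8 and 60.1 CPM at passage 6 and at 27.9 and 26.2 CPM at passage 30 (-1.17 ± 0.060). Jun went from 69.2 and 67.1 CPM to 45.0 and 37.4 CPM (-0.72 ± 0.059). The orphan nuclear receptor Nr4a1 went from 91.2 and 90.9 CPM to 53.8 and 53 CPM (-0.77 ± 0.052). The passages did not overlap in any of the 3, and 32.2% of all genes tested were likewise lower at passage 30 without overlap. Egr1, a zinc-finger factor induced by ERK, went from 208 and 207 CPM to 144 and 142 CPM (-0.53 ± 0.046). Fosl1, Egr2, Egr3, Ier3, Zfp36, Fos, Junb, Klf6 and Dusp1 also fell, with log2 fold changes from -0.96 in Egr2 to -0.16 in Dusp1. Jund, Ier2 and Atf3 were not called. Against the other lines, Fosb was at 179 and 171 CPM in EpiSC and at 3.21 and 3.53 CPM in ESC, so the passage 30 level lay under both.

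**Figure D3:**
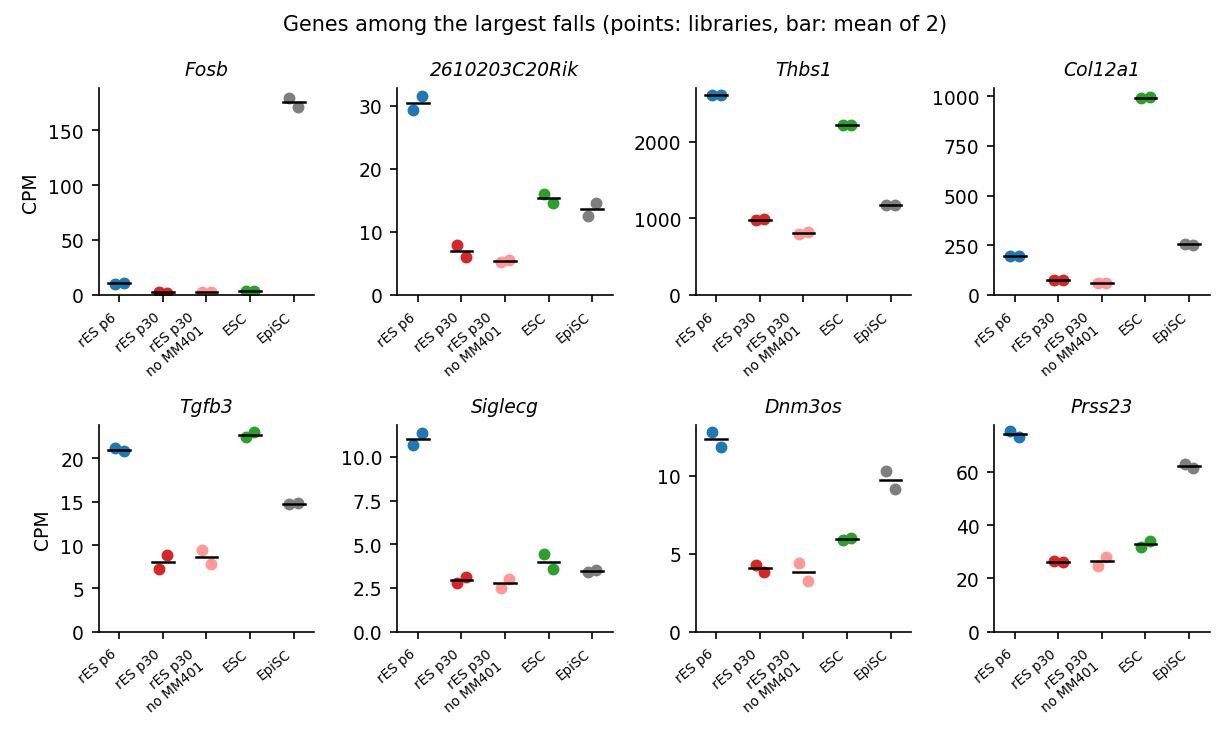
CPM (y axis, linear from 0) of 8 of the 15 largest falls in rES at passage 6, passage 30 and passage 30 without MM401, and in ESC and EpiSC; points are libraries and bars the mean of 2. In each panel both passage 30 points lie below both passage 6 points, which the naming rule required. For Thbs1 they are at 975 and 985 CPM against 2609 and 2605 CPM.

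Promoters of the genes that fell were searched for the AP-1 motif TGANTCA (both strands) and for the CArG box, the site of serum response factor in muscle and immediate early genes. A RefSeq window of the 250 bases before the start was at hand for 11944 of the genes tested (73.5%). The AP-1 letters occurred in 4.69% of all windows, in 5.84% of those of genes that fell, in 7.72% of those of genes that fell at least 2-fold and in 3.13% of those of genes that rose. The CArG box occurred in 1.13%, 1.95%, 2.94% and 0.801% of the same sets. Some of these shares rest on few windows. Of 272 windows of genes that fell at least 2-fold, 21 held the AP-1 letters and 8 the CArG box. Of 1374 windows of genes that rose, 43 and 11 did. Of the AP-1 and immediate early list, 0 of 13 windows held the AP-1 letters and 1 of 13 the CArG box. A set of 4 stretches of 80 bases is shown as examples of windows with a match, in capitals, from genes that fell. These are Mmp3, a matrix protease (chr9:7445739-7445818, + strand), Col6a1, a collagen VI chain (chr10:76726092-76726171, - strand), Lif (chr11:4257318-4257397, + strand) and Myl9, a smooth muscle myosin light chain (chr2:156775268-156775347, + strand), all in RefSeq GRCm38.p6. The 4 examples were chosen after their values were seen.
Mmp3: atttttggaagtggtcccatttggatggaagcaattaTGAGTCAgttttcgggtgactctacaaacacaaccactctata
Col6a1: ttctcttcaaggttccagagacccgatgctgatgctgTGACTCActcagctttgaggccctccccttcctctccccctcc
Lif: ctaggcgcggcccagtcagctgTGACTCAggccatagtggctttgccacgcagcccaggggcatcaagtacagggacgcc
Myl9: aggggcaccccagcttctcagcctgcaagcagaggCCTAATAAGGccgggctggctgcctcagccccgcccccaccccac
Mmp3 fell from 239 and 235 CPM to 109 and 119 CPM, Col6a1 from 83.8 and 79.9 CPM to 47.1 and 42.5 CPM, and Myl9 from 61.2 and 62.9 CPM to 24.3 and 27.8 CPM. A match describes the letters of the window and does not show that a factor binds there.

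Within the LIF pathway, the ligand and one receptor fell while another receptor and one target rose. Lif itself stood at 52.0 and 48.8 CPM at passage 6 and at 32.0 and 34.1 CPM at passage 30 (-0.61 ± 0.065, adjusted p = 8.81e-10). Osmr, the oncostatin M receptor, went from 28.9 and 30.6 CPM to 12.5 and 12.2 CPM (-1.27 ± 0.076) and followed the feeder markers. Lifr, the LIF receptor, rose from 85.8 and 85.7 CPM to 103 and 106 CPM (0.28 ± 0.055, adjusted p = 0.000102). Tfcp2l1, a STAT3 target of the naive network, rose from 1176 and 1189 CPM to 1444 and 1482 CPM (0.31 ± 0.037). Of the 19 genes tested in this list, 4 rose (21.1%) and 3 fell (15.8%), beside 11.3% and 14.4% of all genes tested. The count of rises was 8 without passage 30 replicate 2 and 2 without passage 30 replicate 1.

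The naive and shared pluripotency genes kept close to their passage 6 levels, with small rises in part of them. Of 24 naive genes, 10 rose and 2 fell, with a median of 0.10. Under RLE size factors 12 rose and under total counts 6, and 6 rose without passage 6 replicate 1. Nanog stood at 811 and 828 CPM at passage 6 and at 952 and 958 CPM at passage 30 (0.22 ± 0.037, adjusted p = 1.2e-05). Fbxo15, an F-box gene used as a pluripotency reporter, rose from 311 and 318 CPM to 385 and 410.4 CPM (0.34 ± 0.037). Esrrb, a nuclear receptor of the naive network, rose from 1048 and 1073 CPM to 1147 and 1134 CPM (0.10 ± 0.033), and Prdm14, a repressor of FGF signalling, by 0.13, and both calls were lost with total counts (adjusted p = 0.0705 and 0.08). The call of Esrrb was also lost without passage 6 replicate 1 (0.171), and that of Prdm14 with each library left out in turn (0.0539 to 0.104). Klf4 stood at 654 and 648 CPM and then at 727 and 664 CPM (0.10 ± 0.038, adjusted p = 0.0601), and was called in 7 alternatives (RLE size factors, no filter, DESeq2, without the deeper libraries, the replicate block, thinned counts and without passage 30 replicate 2, adjusted p from 0.00404 to 0.0477). Tbx3 (-0.007) and Zfp42 (-0.07) were not called, and Dppa3 at 3.12 to 5.84 CPM overlapped between the passages. Spp1, which encodes the secreted protein osteopontin, fell from 1595 and 1613 CPM to 1192 and 1287 CPM (-0.37 ± 0.034). Zfp57, which protects imprints, fell from 763 and 746 CPM to 639.5 and 634 CPM (-0.24 ± 0.035).

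Of 13 shared pluripotency genes, 6 rose and none fell (1 fell without passage 30 replicate 1), with a median of 0.12. Pou5f1 stood at 1457 and 1458 CPM at passage 6 and at 1685 and 1597 CPM at passage 30 (0.17 ± 0.036, adjusted p = 0.000298). Lin28a, an RNA-binding inhibitor of let-7 processing, rose from 191 and 189 CPM to 223 and 223 CPM (0.23 ± 0.037). Sox2 stood at 804 and 791 CPM and then at 901 and 813 CPM, which was not called (adjusted p = 0.055) and was called in the same 7 alternatives as Klf4, RLE size factors and DESeq2 among them (adjusted p from 0.00217 to 0.0424).

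Primed genes moved both ways. Of 22 tested, 4 rose (18.2%) and 5 fell (22.7%), beside 11.3% and 14.4% of all genes tested. Grb10, an imprinted adaptor that restrains insulin signalling, fell from 81.2 and 81.1 CPM to 42.3 and 44.6 CPM (-0.90 ± 0.054), far under the 714 and 724 CPM of EpiSC. The Wnt receptor Fzd2 fell from 16.4 and 16.3 CPM to 10.5 and 9.10 CPM (-0.73 ± 0.093). Lef1, a nuclear effector of Wnt signalling, rose from 11.5 and 9.83 CPM to 15.1 and 18.2 CPM (0.64 ± 0.098). Otx2 (0.09) was not called, and Fgf5 stayed between 0.939 and 1.46 CPM in the 4 libraries. Markers of later lineages were mostly uncalled. None of 16 trophoblast genes was called, 1 of 18 mesoderm genes fell (Hand2, at most 1.47 CPM), and of 13 neuroectoderm genes Nes and Ncam1 fell and Sox3 rose. The call of Hand2 was lost without passage 6 replicate 2 and without either passage 30 replicate (adjusted p = 0.578, 0.0875 and 0.183) and with DESeq2 (0.0627), and that of Sox3 without passage 6 replicate 2 (0.0637) or passage 30 replicate 1 (0.153). For the trophoblast list DESeq2 also made 0 calls, and at an unadjusted edgeR p under 0.05 there were 1 rise and 2 falls. With single libraries left out none rose, and 1 fell without passage 6 replicate 2 or passage 30 replicate 1 and 0 without either of the others. Of 20 primitive endoderm genes tested, 3 rose (15%) and 6 fell (30%), beside 11.3% and 14.4% of all genes tested. Pdgfra and Dab2 fell by 1.07 and 1.19 on the log2 scale and follow the feeder markers. Of the 6 falls, 3 did not follow the markers, such as Col4a2 (-0.33, r = 0.647). The 3 rises were Gata6, Lama1 and Lamc1, by 0.31, 0.25 and 0.16, chosen after their values were seen.

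The position of each library between EpiSC (0) and ESC (1) was computed as the slope of its log2 CPM on the ESC minus EpiSC difference over 4523 genes called at least 2-fold between those lines. It was 0.7354 and 0.7378 at passage 6 and 0.7557 and 0.7594 at passage 30, a difference of 0.021 between means of 0.7366 ± 0.0017 and 0.7576 ± 0.0026 (SD, n = 2 each). The passages did not overlap, and with 2 against 2 libraries an exact two-sided permutation test cannot go below 0.333. Passage 30 cells without MM401 were at 0.7551 and 0.7606. Without the genes that followed the feeder markers the positions were 0.7473 and 0.7503 at passage 6 and 0.7767 and 0.7801 at passage 30. Of the 1828 genes that rose, 976 (53.4%) were higher and 612 (33.5%) lower in ESC than in EpiSC. Of the 2339 that fell, 881 (37.7%) were higher and 982 (42%) lower in ESC. Among genes not called between the passages these shares were 34.4% and 37.2%. Among the 1529 falling genes that did not follow the feeder markers, 492 (32.2%) were higher and 794 (51.9%) lower in ESC. The ESC and EpiSC libraries are not among the 4 compared.

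Part of the enzymes that write and remove DNA methylation rose slightly. Of 14 tested genes of this list, 7 rose and 1 (Zfp57) fell, and 4 rose with total counts, without passage 6 replicate 1 or without passage 30 replicate 1. Tet1, which oxidises methylcytosine, stood at 872 and 877 CPM at passage 6 and at 1049.6 and 1079.8 CPM at passage 30 (0.28 ± 0.037, adjusted p = 8.26e-08). The methyltransferase Dnmt3a went from 73.8 and 67.9 CPM to 91.9 and 86.8 CPM (0.34 ± 0.053), and its cofactor Dnmt3l from 539 and 533 CPM to 643 and 631 CPM (0.25 ± 0.034). Dnmt3b rose by 0.16 (adjusted p = 0.0349), a call lost with total counts (0.0921) and without passage 6 replicate 1 (0.416), passage 30 replicate 1 (0.277) or the genes that followed the feeder markers (0.0559). Uhrf1, which guides Dnmt1 to replicated DNA, rose by 0.14.

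Of the genes of the target pathway of MM401, Kmt2a stood at 155 and 165 CPM at passage 6 and at 166 and 165 CPM at passage 30 and was not called (0.05 ± 0.047). Of 23 genes of the MLL and SET1 complexes and their demethylase partners, 9 rose and 2 fell (1 fell without either passage 6 replicate or passage 30 replicate 2). Wdr5, a core subunit, rose from 471 and 468 CPM to 536 and 546 CPM (0.20 ± 0.034), and the H3K4 demethylases Kdm5b and Kdm5a rose by 0.26 and 0.28. Of 11 Polycomb repressive complex 2 genes, 6 rose and 1 fell, and 4 rose with total counts and 7 with RLE size factors. Among the 6 were the methyltransferase Ezh2, by 0.20, and Suz12 and Jarid2, by 0.16 each. The accessory subunit Phf1 fell from 26.3 and 27.3 CPM to 18.1 and 18.4 CPM (-0.55 ± 0.085). Of 37 clustered Hox genes, which these 2 systems are known to hold active or silent, 15 fell and none rose (17 fell with total counts, 12 with DESeq2, and 9 without passage 6 replicate 2 or passage 30 replicate 1, when 1 rose in the second case), and 10 of the 15 followed the feeder markers. Their levels were low, as for Hoxc6, which went from 4.84 and 5.67 CPM to 2.39 and 2.24 CPM (-1.18 ± 0.17), and Hoxb9, from 9.96 and 10.2 CPM to 6.57 and 5.84 CPM (-0.70 ± 0.13).

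Imprinted genes changed in both directions. Of 38 tested, 6 rose (3 without passage 6 replicate 1 or passage 30 replicate 2) and 10 fell, with a median of -0.03. Igf2, a growth factor expressed from the paternal allele, stood at 123 and 124 CPM at passage 6 and at 62.3 and 64.0 CPM at passage 30 (-0.97 ± 0.043), and H19, the maternally expressed long RNA next to it, went from 258 and 253 CPM to 143 and 141 CPM (-0.85 ± 0.038). Both followed the feeder markers. Meg3, a maternally expressed long RNA, went from 491 and 485 CPM to 269.6 and 261 CPM (-0.88 ± 0.039), and the paternally expressed Dlk1 of the same cluster fell by 0.90, a gene chosen after its value was seen. The paternally expressed Peg10 rose from 600.2 and 605 CPM to 776 and 764 CPM (0.35 ± 0.048), also chosen after its value was seen. Allele-specific counts were not analysed here.

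On the X chromosome, Xist, the long RNA that coats the inactive X, fell from 86.2 and 87.7 CPM at passage 6 to 48.2 and 50.1 CPM at passage 30 (-0.83 ± 0.10, adjusted p = 0.000118). It did not follow the feeder markers (r = 0.193) and was at 37.5 and 30.7 CPM without MM401, at 30.2 and 31.6 CPM in ESC and at 620.3 and 624 CPM in EpiSC. Tsix, its antisense RNA and the gene named in the genotype label, had 16 to 37 counts in the 4 libraries and was not called. Without a stated strand rule, reads of Xist and Tsix cannot be told apart where they overlap. Of 608 X-linked genes, 106 (17.4%) rose and 58 (9.54%) fell, with a median of 0.06 beside medians of -0.04 on chromosome 7 to 0.04 on chromosome 13 among the autosomes. The X-linked split was 141 and 49 with RLE size factors and 79 and 68 with total counts. Kdm6a, an X-linked H3K27 demethylase, rose from 190 and 193 CPM to 228 and 235 CPM (0.27 ± 0.046), and the ubiquitin ligase Rlim, an activator of Xist, rose by 0.17, a call lost without passage 6 replicate 2 (adjusted p = 0.0587).

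Interferon and MHC class I genes fell in part. Of 27 tested, 15 fell and 3 rose, with a median of -0.25, and 8 of the 15 did not follow the feeder markers. H2-D1, a class I heavy chain, went from 50.8 and 51.5 CPM to 30.5 and 31.0 CPM (-0.74 ± 0.062), and its light chain B2m from 147 and 153 CPM to 103 and 109 CPM (-0.50 ± 0.055). H2-D1 and H2-K1 are close paralogs, and no rule for multi-mapping reads is given in the sources used here, so their counts are uncertain. Ifit1, an interferon-induced antiviral gene, went from 4.07 and 3.29 CPM to 1.41 and 0.827 CPM (-1.69 ± 0.25), and without MM401 it was at 3.00 and 2.51 CPM. Of 25 p53 targets, 9 fell (36%) and 4 rose (16%), beside 14.4% and 11.3% of all genes tested. The cell cycle inhibitor Cdkn1a fell from 209 and 199 CPM to 136 and 137 CPM (-0.58 ± 0.038) and the p53 ubiquitin ligase Mdm2 from 194 and 203 CPM to 152 and 152 CPM (-0.39 ± 0.040), and Cdkn1a followed the feeder markers (r = 0.91) while Mdm2 did not (r = 0.702).

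Signalling lists showed small changes of mixed sign. Their counts stand beside the 11.3% of all genes tested that rose and the 14.4% that fell. In the Nodal and activin list 7 of 19 genes rose and 3 fell (1 fell without either passage 6 replicate or passage 30 replicate 1). Inhba, the activin A subunit, went from 85.9 and 82.8 CPM to 42.4 and 43.5 CPM (-0.97 ± 0.064), while the Nodal antagonists Lefty1, from 247 and 248 CPM to 353 and 315 CPM (0.43 ± 0.041), and Lefty2, from 468 and 477 CPM to 647 and 625 CPM (0.43 ± 0.034), rose. Of 30 Wnt genes 7 rose (4 without passage 6 replicate 1) and 3 fell. The R-spondin receptor Lgr4 and the Wnt deacylase Notum rose by 0.28 and 0.32. Of 24 FGF and ERK feedback genes 9 fell and 3 rose, with Phlda1 lowest among them at 45.9 and 45.0 CPM and then 24.4 and 21.9 CPM (-0.97 ± 0.074). Of 21 BMP genes 4 fell and 3 rose (1 without passage 6 replicate 2), and the BMP targets Id1 and Id2 fell by 0.42 and 0.48.

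Housekeeping, stress response, cell cycle, germ line and MHC class II lists had medians from -0.087 to 0.094. Their counts stand beside the 11.3% of all genes tested that rose and the 14.4% that fell. Of 48 cytosolic ribosomal protein genes, 15 rose and 2 fell (0 fell without either passage 6 replicate or passage 30 replicate 1), with a median of 0.09. Rpl7 went from 151 and 153 CPM to 206 and 213 CPM (0.46 ± 0.042) and Rps3 from 1403 and 1366 CPM to 1775 and 1792 CPM (0.37 ± 0.036). Many such genes have processed pseudogenes, so their counts are uncertain. Of 40 respiratory chain genes 10 rose and 6 fell. The rises were 5 without either passage 6 replicate, and the falls were 1 without passage 6 replicate 1 and 2 without passage 30 replicate 2. Of 24 glycolysis genes 5 rose (3 without either passage 6 replicate) and 4 fell (2 without passage 6 replicate 1). Of 24 cholesterol synthesis genes 1 rose and 3 fell. With single libraries left out, 0 to 2 of these rose and 0 or 1 fell, with 0 of each without passage 6 replicate 1. Of 27 integrated stress response genes 6 rose and 5 fell (3 fell without passage 6 replicate 1 or passage 30 replicate 2). Of 33 cell cycle genes 9 rose, and the count was 4 without either passage 6 replicate and 5 without passage 30 replicate 2. The replication helicase subunit Mcm5 was among the 9 (0.20), and the inhibitor Cdkn2b (-0.74) among the 4 that fell. Of 29 germ line genes 7 rose and 2 fell, Piwil2 (0.27) and Sohlh2 (0.24) among the rises. Without passage 6 replicate 2 the rises were 2, without each of the other 3 libraries they were 4, and 1 fell in each case. None of 10 MHC class II genes was called by edgeR or DESeq2, and 0 had an unadjusted p under 0.05.

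The 2-cell-like genes, which mark a rare early-embryo-like state in stem cell cultures, had the highest median of the 34 lists, at 0.55, from low levels. Of 29 listed genes, 27 were in the table and 21 were tested. The 6 left out for low counts were Zscan4c (at most 3 counts in a library), Zscan4f (at most 1), and Tcstv1, Tcstv3, Gm4340 and Gm6763, with 0 in every library. Of 21 tested, 4 rose and none fell, and the passages did not overlap, with passage 30 higher, in 18 (29.6% of all genes tested did so in that direction). Tmem92 stood at 34.3 and 36.1 CPM at passage 6 and at 40.9 and 46.7 CPM at passage 30 (0.31 ± 0.10, adjusted p = 0.0184). Pramel7 went from 17.2 and 18 CPM to 22.2 and 23.1 CPM (0.36 ± 0.11), Gm2022 from 4.12 and 3.33 CPM to 6.57 and 6.67 CPM, and Usp17lb from 1.63 and 2.21 CPM to 3.84 and 3.26 CPM. DESeq2 called 6 of them and edgeR with RLE size factors 7. None of the 21 was called by edgeR without passage 6 replicate 1, passage 6 replicate 2 or passage 30 replicate 2, and 3 were called without passage 30 replicate 1. Many of these genes belong to families of near-identical copies, so reads may be shared among them.

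Few genes of at least 10 CPM rose by much, and the largest such rises were led by Rn45s and Rpph1, the RNA component of RNase P. Rpph1 was at 2.49 and 3.21 CPM at passage 6 and at 6.14 and 18.8 CPM at passage 30, and Rn45s at 4077 and 3898 CPM and then at 5531 and 20589 CPM. Passage 30 replicate 2 is the highest library for both. With it left out, the log2 fold change of Rpph1 was 1.10 in place of 2.11 (adjusted p = 0.0148, against 0.0382 with all libraries), and that of Rn45s was 0.47 in place of 1.71 (0.0911 against 0.047). Both calls were lost without passage 6 replicate 1 (0.176 and 0.179) or 2 (0.137 and 0.194). Neither gene was called in a fit of the 4 libraries alone. Lars2 stood at 351 and 341 CPM and then at 422 and 1739 CPM, with the same library high, and was not called (adjusted p = 0.0697; chosen after its value was seen).

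The other large rises were even between the libraries. Gm1995, an unnamed gene model, was at 10.9 and 10.5 CPM at passage 6 and at 21.2 and 19.4 CPM at passage 30 (0.92 ± 0.14, adjusted p = 1.04e-06). Slc27a2, a fatty acid transporter, went from 6.56 and 7.06 CPM to 11.6 and 12.9 CPM (0.84 ± 0.13). Tmem132c, a membrane protein gene, went from 7.28 and 7.23 CPM to 12.8 and 11.1 CPM (0.72 ± 0.15). Trh, which encodes thyrotropin-releasing hormone, went from 68.1 and 64.9 CPM to 104 and 104 CPM (0.65 ± 0.053). Lef1 (described above), Rapgef5, Spesp1, Gm8994, 1700003M02Rik, Gm11544, Bend7, Igsf9b and Gm5039 made up the rest, with log2 fold changes from 0.59 to 0.83. The call of Spesp1 was lost without passage 6 replicate 1 (adjusted p = 0.0761), and that of Gm11544 without passage 6 replicate 2 (0.0646) or passage 30 replicate 2 (0.0574). Without MM401 at passage 30, Gm1995 was at 12.5 and 10.9 CPM, Tmem132c at 7.11 and 8 CPM, Trh at 75.7 and 80.5 CPM, Lef1 at 10.3 and 9.20 CPM and Rapgef5 at 13.8 and 11.3 CPM. These genes were picked for high values in the passage 30 libraries with MM401, so the values without it are given as levels, with no test. Chd7, a chromatin remodeller chosen after its value was seen, was at 59.5 and 60.2 CPM at passage 6, at 87.3 and 86.3 CPM at passage 30 and at 56.1 and 59.0 CPM without MM401.

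**Figure D4:**
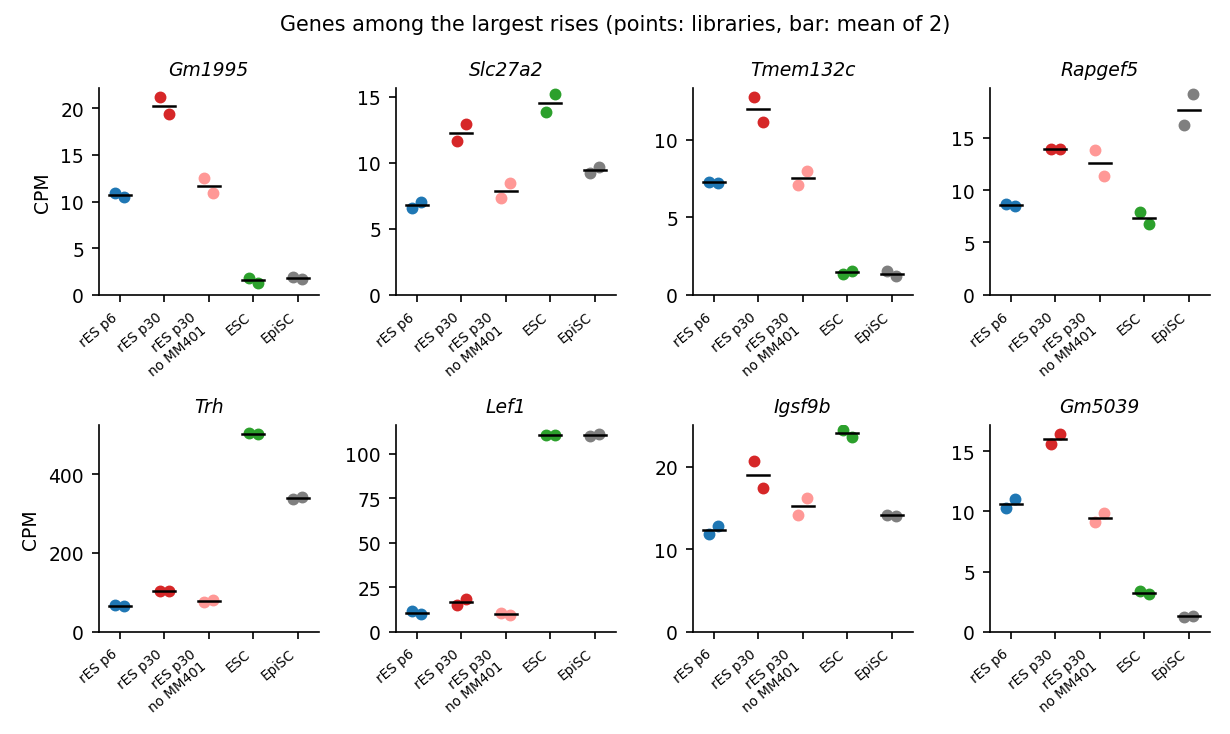
CPM (y axis, linear from 0) of 8 of the 15 largest rises in the same 5 groups; points are libraries and bars the mean of 2. Passage 30 lies above passage 6 in each panel, which the naming rule required, and 29.6% of all genes tested were likewise higher without overlap. For Gm1995 the points without MM401, 12.5 and 10.9 CPM, lie near those of passage 6.

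The nuclear long RNAs Malat1 and Neat1, both chosen after their values were seen, fell as well. Malat1 stood at 1039 and 1065 CPM at passage 6, at 569.6 and 572 CPM at passage 30 and at 379 and 369.8 CPM without MM401 (-0.88 ± 0.048, passage 30 against passage 6). Neat1, the scaffold of paraspeckles, stood at 83.3 and 81.3 CPM, then at 36.3 and 35.1 CPM (-1.20 ± 0.060), and followed the feeder markers. Both libraries of passage 30 lay under both of passage 6 in each gene, as in 32.2% of all genes tested.

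**Figure D5:**
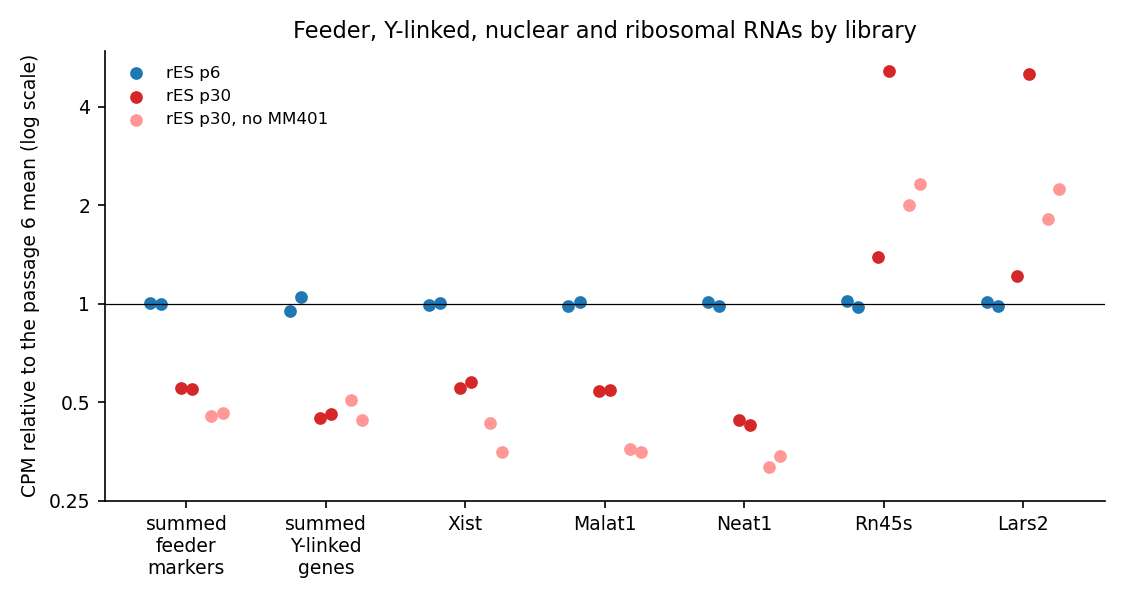
CPM relative to the passage 6 mean (y axis, log scale) of the summed feeder markers, the summed Y-linked genes, Xist, Malat1, Neat1, Rn45s and Lars2 in each rES library. The passage 30 points of the first 5 lie below the passage 6 points, and those of Rn45s and Lars2 are split, with replicate 2 far above replicate 1.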

How the data were processed

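All values come from raw read counts per gene symbol, which the authors deposited as 1 table. The tools DESeq, Subread and TopHat2 and the build mm9 are listed in the submitters' processing notes, without versions or roles. Libraries were single-end TruSeq, per the labels' protocols. No strand or multi-mapping rule is given in the sources used here. The 2 columns without a matching sample were left out, and 27 gene names had been read as dates.

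Genes were filtered with filterByExpr, scaled with TMM and tested with edgeR 4.0.16 (robust quasi-likelihood F test, R 4.3.3, limma 3.58.1) on all 14 libraries with 1 mean per group (7 residual degrees of freedom). The SE of a log2 fold change is its size over the square root of F. CPM are TMM-scaled. Position used log2 CPM with a prior count of 2. Chromosomes came by symbol from a later assembly than mm9 (99.5% of tested genes matched). The pipeline was tested on simulated data.

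Genes named are the 15 largest rises and falls (at least 10 CPM in either group, no overlap), up to 4 called members of each of 34 lists and a fixed panel. A gene outside this rule carries a mark in the text (its value was seen first), or stands where the calls of a list are named in full. Members and lists were chosen with earlier results of these data known, and lists carry no test of their own. Over all genes no pairing by replicate number was seen (correlation of same-numbered deviations 0.015). Counting error enters these deviations, so a pairing that touches only some genes could be missed. Alternatives were other scalings, no filter, DESeq2 1.42.0, other sets of libraries, a replicate block, thinned counts and each library left out.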

Additional observations from a re-analysis of the deposited data

How the results depend on the processing

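With each library left out in turn, 2711 to 3619 genes were called, 1037 to 1681 higher and 1674 to 1938 lower, with 10 to 33 at least 2-fold higher; the median of the feeder list ran from -0.998 to -0.96 and that of the naive list from 0.081 to 0.107. At least 2-fold, 410 genes were called, 18 higher and 392 lower. The count at least 2-fold higher was 28 with no filter on low counts and 32 without the deeper MM401 libraries. The feeder median of -0.979 was -0.952 with RLE, -1.008 with total counts and -0.953 with DESeq2. Without genes that follow the markers it was -0.789, over the 8 markers that do not follow their own sum. The naive median of 0.101 was 0.129 with RLE, 0.073 with total counts and 0.128 with DESeq2. Without the genes that follow the feeder markers, 1551 genes were lower, 158 of them at least 2-fold. The position difference of 0.021 was 0.0236 with total counts and 0.0295 without those genes. A replicate block called 4119 genes, 1798 higher and 2321 lower. No pairing by replicate number was seen over all genes. Of the genes named, 3 that were never called in the main test changed sign: Tbx3 (-0.007; 0.02 with RLE and DESeq2, 0.005 with no filter, 0.006 without passage 6 replicate 1, and from -0.068 to 0.06 over all libraries left out), Tsix (0.294; from -0.317 to 0.69 with libraries left out, the lowest without passage 30 replicate 1) and Fgf5 (0.119; from -0.216 to 0.43, the lowest without passage 30 replicate 2). The cause of these shifts was not tested, beyond fewer genes or samples in the fits that leave some out. Of the 147 named genes called, 15 and 17 lost their call without passage 6 replicate 1 and 2, 10 and 11 without passage 30 replicate 1 and 2, and at most 5 in any other alternative. Depth limits genes of a few CPM, such as the Hox and 2-cell-like genes.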
